A study of Mus musculus with 44 samples.

Results

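Long 5′ fragments of the lysine tRNA with anticodon CTT (LysCTT), 46 to 50 nt long, were followed across mouse hypothalamus. They are 8 overlapping sequences out of 17051 tRNA fragments (tRFs) in the deposited count table, taken by name. They were selected on their counts in these libraries, which were seen to vary greatly, so their levels in each library are given as a description. The study asked how small RNAs of the hypothalamus differ after an oligonucleotide against miR-132 was given to obese mice, and between obese and lean mice. All animals were C57Bl/6J mice kept on their diet for 11 weeks. AM132 (16 libraries) came from mice made obese by a high-fat diet and injected with a 16-nt oligonucleotide complementary to miR-132, protected by locked nucleic acid (LNA). AM608 (16 libraries) came from mice made obese on the same diet and injected with a 15-nt LNA oligonucleotide complementary to miR-608, a miRNA of primates, as the control. Both oligonucleotides were given into a vein at 3.3 mg/kg on 3 days in a row, and tissue was taken 7 days after treatment. RCD (12 libraries) came from lean mice of matched age on regular chow, and no label describes an injection for them. Against RCD, effects of obesity and of injection cannot be told apart. The labels give neither sex nor age in weeks.

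Transfer RNAs carry amino acids to the ribosome, and LysCTT, whose anticodon is written here in DNA letters, reads the lysine codon AAG. Ribonucleases such as angiogenin can cut tRNAs within the anticodon loop, and the pieces left on either side of such a cut are known to accumulate in stressed cells. The fragments described here begin at the first base of the tRNA, as the 5′ pieces of such a cut do, but run through the anticodon loop and the 3′ strand of the anticodon stem, into or past the variable loop.

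The 3 members of 50 nt and the 2 commonest 5′ fragments of 35 nt, which end within the anticodon loop, are shown because they differ at the anticodon stem. Capitals mark the anticodon loop, positions 32 to 38 counted from 1 at the 5′ end, of which the 35-nt fragments hold only the first bases. The name given with each sequence is that of the table.
tRF-50-PSQP4PW3FJIKE7UMKKSW: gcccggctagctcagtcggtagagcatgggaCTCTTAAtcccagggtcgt
tRF-50-PSQP4PW3FJI0E7UM8KSW: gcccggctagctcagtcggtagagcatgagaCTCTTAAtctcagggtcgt
tRF-50-PSQP4PW3FJIKE7UM8KSW: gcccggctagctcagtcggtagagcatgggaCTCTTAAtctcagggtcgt
tRF-35-PSQP4PW3FJIKE7: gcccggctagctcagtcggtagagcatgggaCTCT
tRF-35-PSQP4PW3FJI0E7: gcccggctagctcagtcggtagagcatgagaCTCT
The first sequence is called the main type below. The second differs from it by G29A and C41T, and is called the variant type. Positions 29 and 41 face each other in the anticodon stem, and both types form a Watson-Crick pair there. The third 50-nt sequence carries C41T alone, which leaves a G-T wobble pair. The other 5 members are shorter pieces with the same start: 4 of the main type, of 46 to 49 nt, and 1 of the variant type, of 49 nt.

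Counts of the 8 members were very unequal. The main type at 50 nt, tRF-50-PSQP4PW3FJIKE7UMKKSW, had 626386 counts over the 44 libraries, which was 83.8% of all member counts and the highest count of any tRF in the table. Its 49-nt form, tRF-49-PSQP4PW3FJIKE7UMKK2K, had 80075 counts, and the variant type at 50 nt, tRF-50-PSQP4PW3FJI0E7UM8KSW, had 29825. Those 3 members held nearly all of the counts. The 48-nt form, tRF-48-PSQP4PW3FJIKE7UMKK0D, had 5638 counts, and the 49-nt variant, tRF-49-PSQP4PW3FJI0E7UM8K2K, had 3641. The remaining 3 were rare, with 658 counts for the wobble-pair sequence tRF-50-PSQP4PW3FJIKE7UM8KSW, 494 for tRF-47-PSQP4PW3FJIKE7UMKKN and 400 for tRF-46-PSQP4PW3FJIKE7UMKK0. Summed, the 8 members had 747117 of the table's 4569025 counts. Another 12 same-start fragments of 46 to 50 nt are no members, and all 20 such fragments had 747620 counts.

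Most counts of these fragments were at 50 nt, the longest length in the table. Within 46 to 50 nt, 87.9% of the main type ended at 50 nt and 11.2% at 49 nt. For the variant type these shares were 88.4% and 10.8%. The 50-nt share of the 2 lengths was taken in single libraries with at least 100 counts of the main type at 49 and 50 nt (38 of 44). It ranged only from 86.1% to 90.1%, with a median of 88.7%, so this split hardly varied while the amount did. A greater count at 50 nt is not particular to these members. All fragments with other starts had 80518 counts at 50 nt, against 7076 at 49 nt. Just below the lower limit, all same-start fragments of 45 nt had 137 counts, against 422 at 46 nt, so few counts lie near that limit. At the upper limit there is no such fall, because 50 nt is the longest length in the table and longer RNAs are not analysed here. Whether a count at 50 nt came from a longer RNA was not tested.

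The 35-nt fragments had the opposite sequence mix. Among same-start fragments of 35 nt, those with G29A made up 84.5% of counts (292686, against 53861 without it). Among those of 50 nt they made up 4.56% (29946, against 627044 without it). The share at 35 nt ranged from 73.6% in RCD 10 to 90.2% in AM608 16 over all 44 libraries. At 49 and 50 nt it ranged from 2.53% in AM132 12 to 15.9% in AM608 16, over the 38 libraries with at least 100 counts of those lengths. The 2 ranges do not overlap, and the 35-nt share was the higher in 38 of 38 libraries. Fragments of 40 to 42 nt, few as they were, lay between, with 32% to 83.2% and a median of 54.6% in the 32 libraries with at least 100 counts. At 44 nt the share was 5.75%, with 226 counts in all. The members' mix was thus seen from 44 nt upward. The opposite mix was not limited to fragments that end in the anticodon loop. The share with G29A was 98.4% at 30 nt and 99.1% at 31 nt, lengths that end before the loop. Past the loop it was nearer even: 61.3% at 39 nt, 52.6% at 40 nt (2704 counts), 73% at 41 nt, 39.2% at 42 nt and 62.3% at 43 nt (69 counts).

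**Figure D1:**
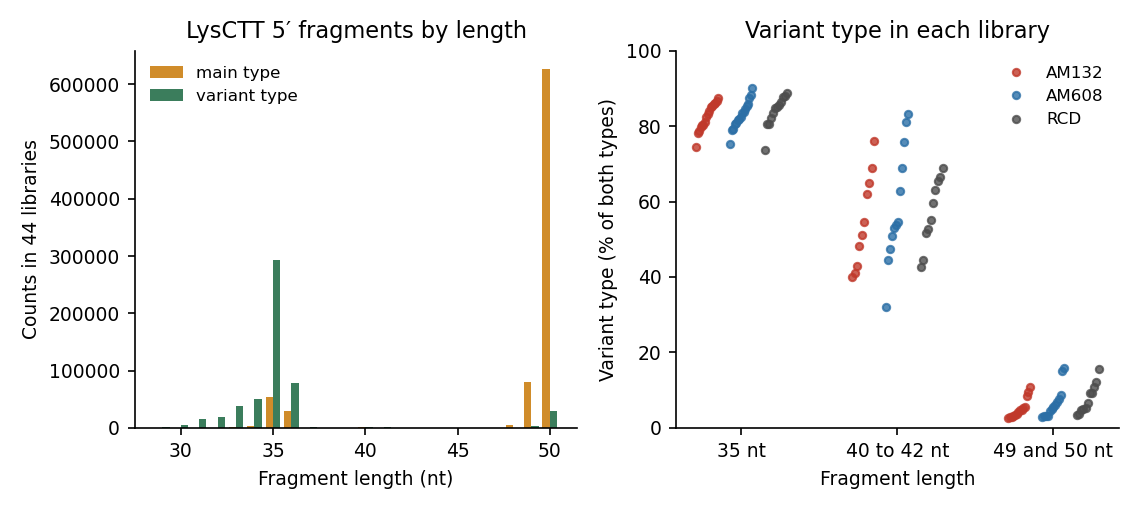
Left, counts over 44 libraries of fragments that start at the first LysCTT base, by length in nt, for the main type and the variant type (which carries G29A; types are split by position 29 alone). Right, the variant type as a percentage of both types in each library with at least 100 counts, by group; it is above 73% at 35 nt in every library and below 16% at 49 and 50 nt.

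The variant type also took an unequal part of the long fragments between batches. In RCD libraries it made up 5.02% to 15.5% of the 49- and 50-nt fragments in batch 4 (median 9.34%, n = 7), against 3.4% to 6.64% in batch 2 (median 4.12%, n = 4). In AM132 libraries it was 8.4% to 10.9% in batch 1 (n = 3) and 3.66% to 5.48% in batch 3 (n = 3), against 2.53% to 5.1% in batch 2 (n = 8). In AM608 libraries it was 4.44% to 15% in batch 1 (n = 4), against 2.87% to 7.52% in batch 2 (n = 8). AM608 16, the only AM608 library of batch 3 with at least 100 counts of those lengths, had 15.9%. The AM132 ranges of batches 1 and 2 are apart. The RCD ranges overlap, as do the AM608 ranges of batches 1 and 2. Within groups and batches the share was mostly lower where the members were more abundant. In batch 2 it was 7.52% in AM608 7 and 2.87% in AM608 8, at member shares of 4.06% and 59.8% of tRF counts. In batch 4 it was 15.5% in RCD 2 and 5.02% in RCD 5, at 9.5% and 43.9%. Some libraries departed from this order, such as RCD 1 with 10.8% at 7.56%. The share at 35 nt was likewise lowest in batch 2, with a median of 80.4% (n = 20), against 84.3% in batch 1, 86.7% in batch 3 and 86% in batch 4 (n = 8 each).

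Several facts of the whole series bear on these values. The labels name 4 batches: batches 1 and 3 each hold 4 AM132 and 4 AM608 libraries, batch 2 holds 8 AM132, 8 AM608 and 4 RCD (RCD 9 to RCD 12), and batch 4 holds RCD 1 to RCD 8 alone. tRF depth was 38619 to 221358 counts per library, and miRNA depth 3020192 to 5997234. The targeted miRNA, miR-132-3p, ranged from 62.3 to 1219 CPM (counts scaled to the table's total in each library) in AM132, from 639 to 1243 in AM608 and from 764 to 1624 in RCD, so the median AM132 library, at 708 CPM, was within the AM608 range. The 5 neuronal miRNAs listed as tissue markers were all present, and the targeted miR-132-3p is one of them. Over all libraries miR-9-5p and miR-128-3p had by far the highest medians, 122603 and 123353 CPM, and miR-124-3p came next at 5027. The sum of the 5 was 100263 to 159711 CPM in batch 2 and 254307 to 325435 CPM elsewhere. The sum of 2 oligodendrocyte miRNAs was 1494 to 3039 CPM in batch 2 and 238 to 1654 CPM elsewhere. Choroid plexus and ciliated-cell miRNAs summed to 3564 to 5512 CPM in batch 2 and 1389 to 7671 CPM elsewhere. Pituitary and epithelial miRNAs summed to 14405 CPM in AM132 6 and 20345 CPM in AM608 5, against a median of 268 CPM over all libraries. These shifts move with the batches in which the members are compared below, and their part in the members' levels was not tested. In bulk tissue, fewer cells of a type and less RNA per cell cannot be told apart.

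The summed counts of the 8 members spanned a 12820-fold range between libraries. The lowest was 4 counts, or 0.00268% of tRF counts, in AM608 15 (95% Wilson interval 0.00104% to 0.00688%, counting error only). The median share was 16.2%, and the highest was 59.8% (59.5% to 60.1%, 51278 counts) in AM608 8. The members reached at least 10% in 28 libraries and at least 50% in 2, AM132 12 and AM608 8, and a member was the most abundant tRF of the library in 29. They were under 1% in 7: AM132 2, AM132 13, AM608 13 to AM608 16 and RCD 7. Low libraries thus occurred in all 3 groups and in batches 1, 3 and 4, and none was in batch 2. The tRF depth of these 7 was 51869 to 221358 counts, and AM608 13, with 20 member counts, was the deepest library of all.

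**Figure D2:**
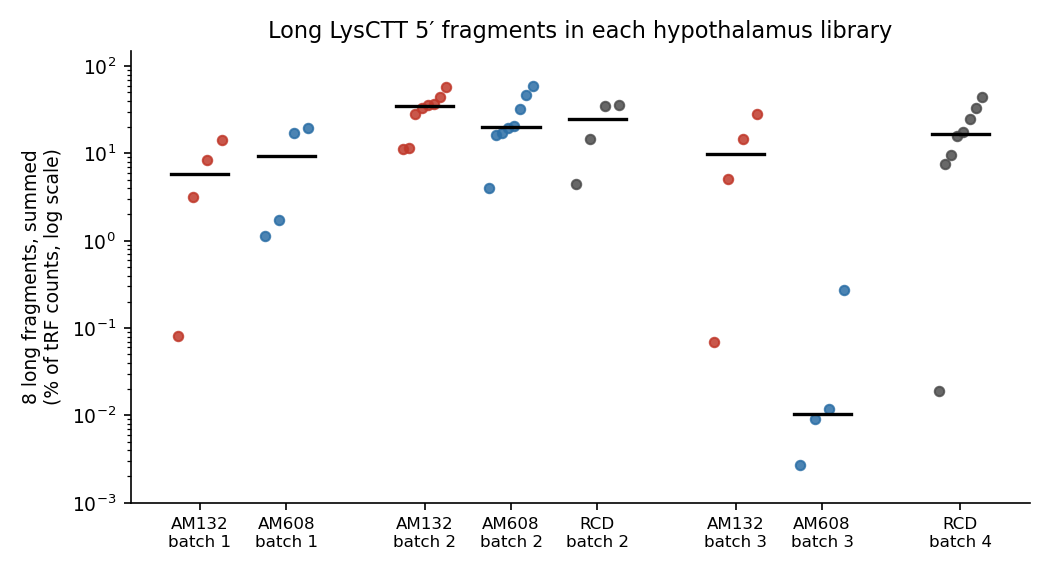
Summed share of the 8 long LysCTT fragments in each of 44 libraries, as a percentage of tRF counts on a log axis, by group and batch; black lines are medians. The 4 AM608 libraries of batch 3 are all below 0.3%, and within the other groups and batches most libraries are between 1% and 60%.

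In batch 1 the members made up 14.4%, 0.0804%, 8.46% and 3.16% of tRF counts in AM132 1 to AM132 4, against 1.72%, 19.5%, 17.1% and 1.14% in AM608 1 to AM608 4. The groups overlap, and AM132 2 is the one library far below the rest. In batch 2 the lowest, median and highest shares were 11%, 34.8% and 57.2% in AM132 (n = 8), 4.06%, 20.1% and 59.8% in AM608 (n = 8), and 4.47%, 24.5% and 35.9% in RCD (n = 4). All 3 groups overlap there. In batch 3 the shares were 0.0695%, 14.8%, 28.4% and 5.16% in AM132 13 to AM132 16, against 0.00904%, 0.012%, 0.00268% and 0.27% in AM608 13 to AM608 16. The last 3 AM132 libraries were above every AM608 library of that batch, and AM132 13 was within the AM608 range. In batch 4, with no other group beside it, RCD ranged from 0.0193% in RCD 7 (10 counts) through a median of 16.9% to 43.9% in RCD 5.

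Counts of the 3 commonest members were as follows in each group and batch. tRF-50-PSQP4PW3FJIKE7UMKKSW had 4916, 63, 6603 and 3387 counts in AM132 1 to AM132 4, against 1797, 23333, 11650 and 953 in AM608 1 to AM608 4. In batch 2 its lowest, median and highest counts were 6547, 29184 and 39493 in AM132, 3064, 14452 and 43624 in AM608, and 5583, 19156 and 20214 in RCD. In batch 3 it had 69, 21585, 31295 and 7504 counts in AM132 13 to AM132 16, against 14, 15, 4 and 309 in AM608 13 to AM608 16. The groups lay farthest apart in batch 3, where AM132 13 was nonetheless within the AM608 range. In batch 4 RCD it ranged from 9 to 22796 counts (median 8471).

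The 49-nt form tRF-49-PSQP4PW3FJIKE7UMKK2K had 624, 5, 958 and 409 counts in AM132 of batch 1, against 218, 3223, 1527 and 136 in AM608. In batch 3 it had 10, 2731, 3929 and 914 counts in AM132, against 2, 1, 0 and 50 in AM608. The 0 in AM608 15, of 149530 tRF counts, allows up to 20.1 CPM (3 counts). Both comparisons look as they do for the 50-nt form: overlapping in batch 1, and in batch 3 apart except for AM132 13. In batch 2 its lowest, median and highest counts were 815, 3870 and 4954 in AM132, 410, 1868 and 5697 in AM608, and 667, 2338 and 2570 in RCD, and in batch 4 RCD it ranged from 1 to 2973.

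The variant type tRF-50-PSQP4PW3FJI0E7UM8KSW had 523, 10, 606 and 423 counts in AM132 of batch 1, against 165, 1076, 707 and 164 in AM608. In batch 3 it had 4, 1108, 1175 and 433 counts in AM132, against 2, 1, 0 and 62 in AM608. In batch 2 it ranged from 330 to 1240 in AM132, from 250 to 1300 in AM608 and from 397 to 970 in RCD. The low libraries are the same ones as for the main type. In batch 4 RCD it ranged from 0 in RCD 7 to 1432 in RCD 4, and the 0 allows up to 57.8 CPM.

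The 5 smaller members were at or near 0 in those libraries too. tRF-48-PSQP4PW3FJIKE7UMKK0D was at 0 in 5 libraries and reached 418 counts in AM608 8. tRF-49-PSQP4PW3FJI0E7UM8K2K was at 0 in 4 libraries and reached 192 counts in RCD 3. tRF-50-PSQP4PW3FJIKE7UM8KSW was at 0 in 7 libraries, tRF-47-PSQP4PW3FJIKE7UMKKN in 8 and tRF-46-PSQP4PW3FJIKE7UMKK0 in 6, and none of the 3 passed 37 counts anywhere. After group and batch means were removed, Spearman's rho between each member and the members' sum was 0.793 to 0.999 over 44 libraries. The members share a start and most of their sequence, and the sum contains each of them.

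The commonest long fragment of another tRNA spanned a far narrower range. The GlyGCC 5′ fragment of 50 nt, tRF-50-PNR8YP9LON4VN1EH6KK8, had 836 to 2125 counts per library, a 2.54-fold range. In batch 3 it had 923 to 1113 counts in AM132 and 976 to 1450 in AM608, the libraries where the LysCTT members had 83 to 36907 counts and 4 to 428. The 50-nt GlyTCC fragment tRF-50-QNR8VP94FQFY392J1Y0S had 214 to 576 counts per library. All 5′ fragments of 46 to 50 nt from other amino acids, 142 in number, summed to 1371 to 3135 counts per library. For the sister lysine tRNA LysTTT, 44 fragments of 46 to 50 nt of any type summed to 6 to 92 counts. The commonest of these was an internal fragment. Some single long fragments of glutamate tRNAs did reach 0: the 50-nt GluCTC fragment tRF-50-87R8WP9N1EWJQ72S3HPS had 0 to 135 counts per library, and the 49-nt GluTTC fragment tRF-49-Y7RZ81JJ6RRNLIK898HR had 0 to 105. Both are far less abundant than the main members.

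The summed shorter 5′ LysCTT fragments varied less than the members. Those of 30 to 36 nt with the same start had 987 to 33811 counts per library, a 34.3-fold range. In batch 3 they had 17508 to 30784 counts in AM132 and 18800 to 27898 in AM608, so the AM608 libraries that nearly lacked the long fragments had about as many of these. The library with the most long fragments per fragment of 30 to 36 nt was AM132 12, at a ratio of 46.6, and the one with the fewest was AM608 15, at 0.000181. The 2 libraries of highest member share, AM132 12 and AM608 8, had the fewest fragments of 30 to 36 nt, 987 and 1506 counts, and also few internal LysCTT fragments, 589 and 514. Scaled to miRNA counts, Spearman's rho between members and the fragments of 30 to 36 nt was -0.0777 over 44 libraries after group and batch means were removed, and -0.357 without that removal. With those fragments as a share of tRF counts, whose total includes the members, it was -0.394 and -0.551. With fragments of 46 to 50 nt from other tRNAs scaled to miRNA counts, it was 0.561 after group and batch means were removed. These points share library and depth, and the values are descriptions. Fragments of 37 to 45 nt summed to 69 to 358 counts and those of 16 to 29 nt to 106 to 435. Internal LysCTT fragments, which lack both tRNA ends, had 7696 to 27334 counts in AM132 and 25124 to 59223 in AM608 of batch 3.

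**Figure D3:**
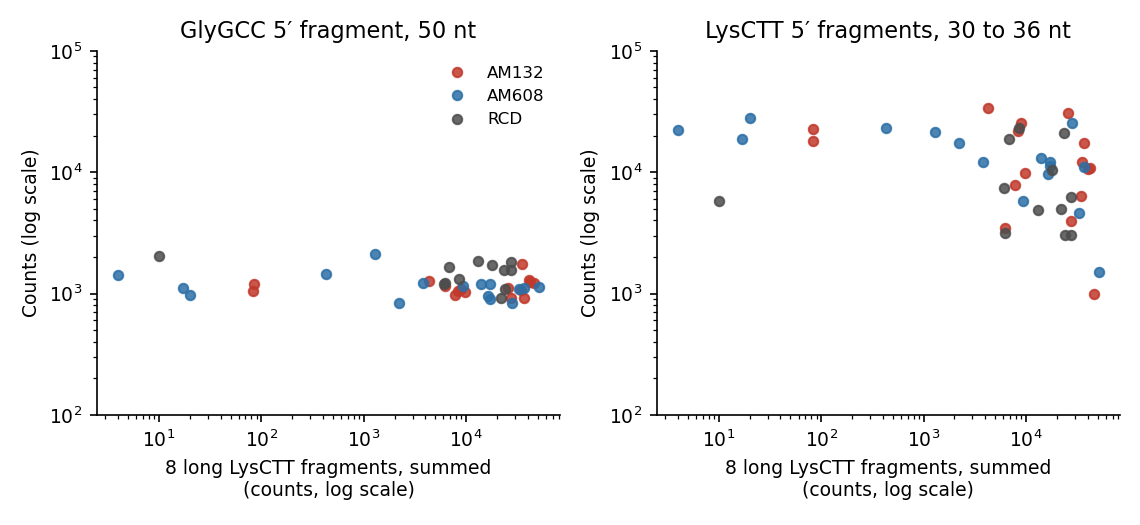
Counts per library (44 points, coloured by group) of the 50-nt GlyGCC 5′ fragment (left) and of LysCTT 5′ fragments of 30 to 36 nt (right), against the summed counts of the 8 long LysCTT fragments; all axes are logarithmic. GlyGCC counts stay between 836 and 2125 while LysCTT long-fragment counts span 4 to 51278.

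No effect of the oligonucleotide against miR-132 on the members passed the test. Over 16 AM132 and 16 AM608 libraries, with batch as a term, 7 of 8 members passed the filter on low counts and all but tRF-46-PSQP4PW3FJIKE7UMKK0 were tested. By edgeR's quasi-likelihood test with Benjamini-Hochberg adjustment, 0 of 7 were called at 0.05, and so were 0 of 494 tRFs (percent called 0; 33, or 6.68%, had an unadjusted p under 0.05, none of them a member). DESeq2 called 0 as well. The members' log2 fold changes, AM132 over AM608, were 0.45 to 0.81 with a median of 0.75, against a median of 0.02 for all tRFs tested. For tRF-50-PSQP4PW3FJIKE7UMKKSW the log2 fold change was 0.78 ± 0.94 (SE), with a 95% interval of -1.15 to 2.70 and an adjusted p of 0.79. For the variant tRF-50-PSQP4PW3FJI0E7UM8KSW it was 0.81 ± 0.75 (adjusted p = 0.735), with an interval of -0.72 to 2.33. Nothing in the labels says that the libraries are from separate animals, so these p-values measure the spread between the libraries.

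The members, selected for their spread, were among the most variable tRFs of the table. Their biological coefficients of variation in that fit were 1.07 to 1.38 and took ranks 1, 2, 3, 5, 8, 10 and 11 of 494, against a median of 0.379. On simulated counts of the same design, the fit found 76.7% of tRFs given a log2 change of 1, and 97.7% of those given 2, with 443 tRFs tested. Those tRFs mostly vary less than the members do.

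Within single batches the fold change of the main member ran in both directions. For tRF-50-PSQP4PW3FJIKE7UMKKSW it was -0.96 ± 1.16 in batch 1 (adjusted p = 0.993), 0.25 ± 0.52 in batch 2 (adjusted p = 0.962) and 7.69 ± 1.67 in batch 3 (adjusted p = 0.109), each from edgeR on that batch alone. By the exact two-sided permutation test on log2(CPM + 1), the batch 3 difference of 7.72 had p = 0.0571 (0.286 after adjustment over 15 such tests), where 4 against 4 libraries can give no p below 0.0286. The same test gave p = 0.629 in batch 1 and p = 0.441 in batch 2. The members were chosen for their spread between these libraries, so the single-batch p-values are no independent evidence. The 15 tests are also of members that overlap in sequence. In batch 3 the choroid plexus and ciliated-cell miRNAs summed to 1389 to 2209 CPM in AM132 and 2081 to 2565 CPM in AM608, and the liver miRNA miR-122-5p had 12.5 to 20.8 CPM in AM132 and 19.4 to 30.8 CPM in AM608. The part of either in the difference was not tested.

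The difference between batches was tested across all 494 tRFs, by edgeR's test of the terms for group by batch. It called 5 tRFs at an adjusted p of 0.05 (1.01%; 22, or 4.45%, at an unadjusted p), and all 5 were members. The adjusted p was 0.0271 for tRF-48-PSQP4PW3FJIKE7UMKK0D, 0.0425 for tRF-50-PSQP4PW3FJIKE7UMKKSW, tRF-50-PSQP4PW3FJIKE7UM8KSW and tRF-49-PSQP4PW3FJI0E7UM8K2K, and 0.049 for tRF-49-PSQP4PW3FJIKE7UMKK2K. It was 0.107 for tRF-47-PSQP4PW3FJIKE7UMKKN and 0.14 for tRF-50-PSQP4PW3FJI0E7UM8KSW. The 5 are pieces of nearly the same RNA and count as 1 pattern, and the members were chosen for their spread between libraries, so the test is no independent evidence. The calls were not stable: 0 remained in fits without AM132 14, AM132 15, AM608 13, AM608 14 or AM608 15, one library at a time. Also 0 remained without AM132 5, AM132 6 and AM608 5 together, which were set apart as rich in miRNAs of other tissue. Limma-voom called 0 and DESeq2 7.

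Neither comparison with lean mice gave a call. Both use the 4 RCD libraries of batch 2, the only batch that RCD shares with the other groups, so their values are not independent of each other. All 8 members were tested against RCD, and edgeR called 0 of 8 and 0 of 575 tRFs in each comparison (percent called 0). At an unadjusted p under 0.05 there were 21 tRFs (3.65%) for AM132 and 28 (4.87%) for AM608, with 0 members in either. DESeq2 called 0 tRFs for AM132 and 1 for AM608, tRF-32-P4R8YP9LON4V3, which is no member. The members' log2 fold changes over RCD were 0.46 to 1.29 in AM132 (median 0.76, all tRFs 0.06) and 0.32 to 0.99 in AM608 (median 0.53, all tRFs 0.09). For tRF-50-PSQP4PW3FJIKE7UMKKSW they were 0.74 ± 0.65 in AM132 (95% interval -0.62 to 2.10, adjusted p = 0.994) and 0.50 ± 0.64 in AM608 (-0.85 to 1.84, adjusted p = 0.992). Without RCD 12 the AM132 value was 0.39, and without AM608 8 the AM608 value was 0.16. The smallest unadjusted p of a member was 0.065, for tRF-46-PSQP4PW3FJIKE7UMKK0 in AM132. On simulated counts of the AM132 comparison, the fit found 39.2% of tRFs given a log2 change of 1, and 80.4% of those given 2, with 588 tested. The changed tRFs were drawn at random, and the members, selected for their spread, may be found less often.

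**Figure D4:**
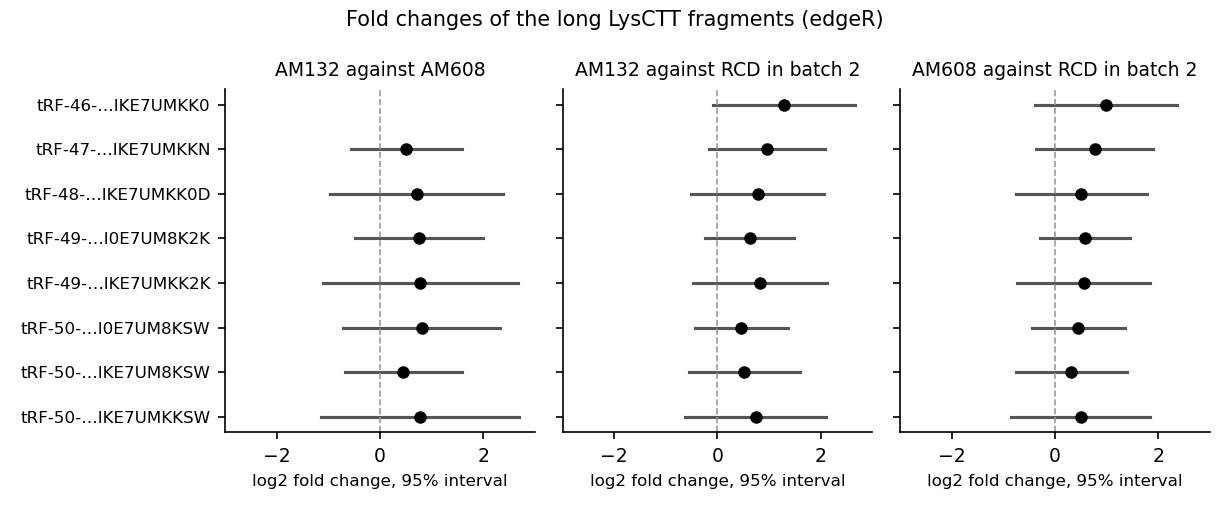
Log2 fold changes from edgeR (points) with 95% intervals (lines) for each tested member in AM132 against AM608 (32 libraries), AM132 against RCD and AM608 against RCD (20 libraries of batch 2). Every point is above 0 and every interval includes 0; the members overlap in sequence.

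Among tRFs that are no members, those whose levels ran most like the members' sum within groups and batches came from GluTTC and LysCTT. Likeness was Spearman's rho of log2(CPM + 1) after group and batch means were removed, over 44 libraries and 505 tRFs with a mean of at least 100 CPM, whose median rho was -0.0279. The highest were tRF-23-87R718YKDE (0.78), tRF-26-86J8WPMN1EE (0.76) and tRF-50-RX6N38Z90668K87SERM4 (0.751), all of GluTTC, then tRF-40-PSQP4PW3FJIKE7UM (0.741) and tRF-33-PSQP4PW3FJIKW (0.739) of LysCTT. Both LysCTT fragments have the main type's sequence at position 29. The lowest were 2 GluTTC fragments of 36 nt, tRF-36-86V8WPMN1E8Y7ZD (-0.642) and tRF-36-86J8WPMN1E8Y7ZD (-0.655). Fragments of one glutamate tRNA thus stood at both ends of the list. Of 409 miRNAs with a mean of at least 10 CPM, miR-148b-3p was highest (0.556), then miR-434-3p (0.513) and miR-1264-5p (0.446), and miR-501-3p (-0.395) and miR-92b-3p (-0.465) were lowest.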

How the data were processed

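Small RNA of hypothalamus was extracted with the miRNeasy kit, 200 ng went into NEBNext small RNA libraries, and a NextSeq 500 sequenced them, per the labels' protocols. The authors deposited raw counts per tRF and per miRNA, unnormalised. FastQC is named in the submitters' processing notes, and trimming, aligner, tRF caller and reference are not given in the sources used here. The members' listed tRNA locations equal no RefSeq mouse LysCTT gene, so no coordinates are given, and LysCTT is the table's own name. How reads shared by several tRNA genes were assigned is not stated.

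Columns were matched to libraries by name, and 0 columns belonged to other samples. Fits used R 4.3.3, edgeR 4.0.16 (filterByExpr with a minimum count of 10 and total of 15, TMM, quasi-likelihood F test, Benjamini-Hochberg at 0.05 over all tested tRFs) and, for trials, DESeq2 1.42.0 and limma 3.58.1. AM132 and AM608 were compared over 32 libraries with batch as a term, and RCD within batch 2. CPM is a count scaled to the table's total in that library. Reads carry no molecular identifiers, so intervals and limits cover counting error only. The fits were tested on simulated counts. Alternatives changed scaling, filter, tool, libraries and the replicate block. The members, lists and marker lists were chosen with earlier results of these data known. All 8 members are named, with the 5 tRFs and 3 miRNAs of highest and the 2 of lowest likeness and the commonest of each list. The 35-nt fragments and the base at position 29 were looked at after the values were seen.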

Additional observations from a re-analysis of the deposited data

Results flagged for a closer look

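In batch 3, AM608 16 stood above the other 3 AM608 libraries, with a gap that is large for 4 values. Its summed member share was 0.27%, against 0.012% in the next. It had 1948 CPM of tRF-50-PSQP4PW3FJIKE7UMKKSW (next 106), 391 CPM of tRF-50-PSQP4PW3FJI0E7UM8KSW (next 9.04), 315 CPM of tRF-49-PSQP4PW3FJIKE7UMKK2K (next 9.04), 37.8 CPM of tRF-49-PSQP4PW3FJI0E7UM8K2K (next 4.52) and 6.31 CPM of tRF-48-PSQP4PW3FJIKE7UMKK0D (next 0), the last from 1 count. Erythroid miRNAs summed to 1933 CPM in AM608 16, against a median of 500 CPM in those 4 libraries, and their part was not tested. For tRF-46-PSQP4PW3FJIKE7UMKK0, AM132 3 stood apart in batch 1 at 142 CPM (next 23.4), and AM608 13 in batch 3 at 4.52 CPM, again 1 count (next 0). Of 70 sets of values so examined 8 were flagged, chance flags about 1 in 20, and the members overlap.

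A difference between batches 1, 2 and 3 in the AM132 over AM608 effect passed edgeR's test for 5 members. They were chosen for their spread between libraries, which this test reads, so it is no independent evidence, and 0 calls remained by limma-voom or without any 1 of AM132 14, AM132 15, AM608 13, AM608 14 and AM608 15. The adjusted p was 0.0271 for tRF-48-PSQP4PW3FJIKE7UMKK0D, 0.049 for tRF-49-PSQP4PW3FJIKE7UMKK2K, and 0.0425 for tRF-49-PSQP4PW3FJI0E7UM8K2K, tRF-50-PSQP4PW3FJIKE7UM8KSW and tRF-50-PSQP4PW3FJIKE7UMKKSW.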

How the results depend on the processing

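In the 3 group comparisons 0 tRFs were called under every alternative run, except 1 tRF in AM608 against RCD with DESeq2 and 1 in AM132 against RCD with no filter, neither a member. No member passed the threshold under any of them. The main member's log2 fold change, AM132 over AM608, was 0.50 (without AM608 13) to 1.07 (without AM132 2) with 1 library left out. In batch 1 alone, where 5 members were tested, all 5 values were negative (-0.09 to -1.18), and without RCD 12 that of tRF-50-PSQP4PW3FJIKE7UM8KSW in AM608 over RCD was -0.03; the cause was not tested. The count of tRFs called for the difference between batches, 5, became 9 with at least 10 CPM, and 0 by limma-voom and without AM132 5, AM132 6 and AM608 5, all alternatives chosen after seeing the data. DESeq2 gave 7. With 1 library left out it was 0 to 8. It was 1 without each of AM132 4, 7, 10 and 11 and AM608 2, 3, 6, 9, 10 and 11. With the replicate number as a replicate block it was 0, and no other call changed. The numbers were not taken to pair the samples, though the counts do not settle this. Deviations of same-numbered libraries correlated from -0.572 to 0.7, over 0.1 in 10 of 16 pairs, and 1 of 16 pairs was each other's best match. The ratio of median summed shares, AM132 over AM608, was 0.618, 1.73 and 946 for batches 1 to 3, or 0.566, 1.7 and 945 when scaled to miRNA counts. With 1 library left out, also chosen after seeing the data, it was 0.336 (without AM132 1) to 3.38 (without AM608 3) in batch 1, so its direction there turns, 1.66 to 1.81 in batch 2, and 490 (without AM132 14 or AM132 15) to 1403 in batch 3. Depth limits the rarest members, at 0 in up to 8 libraries.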
